A study of Mus musculus with 2 samples.

Results

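The cell cycle genes described here are 34 genes whose transcripts rise and fall with DNA replication and cell division, chosen by their symbols from a given list of names. All 34 were found among the 32285 genes of the deposited tables. No measured value entered the choice by name, but earlier results of these data were known when the genes were chosen. They were sorted by role into 12 S-phase genes, 17 mitotic genes and 5 tubulin and chromatin genes. The 2 libraries were made from mice with osteoporotic fracture, from cells of the femoral marrow together with cells attached to the implant, with the 10x Chromium 3' v3 droplet kit. One came from mice with Mg-TAGelMA intramedullary nails and the other from mice with magnesium (Mg) nails, and the labels give neither the strain, age, sex and time after implantation nor whether mice were pooled. Marrow cells and implant-adherent cells share a library and could not be separated. With 1 library per nail there was no test between the nails: the intervals below cover counting error only, and mouse, preparation, software and nail cannot be told apart.

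A dividing cell copies its DNA in S phase and separates the copies in mitosis. Before S phase, the Mcm2 to Mcm7 helicase is loaded at replication origins, Gins2 joins it when it is activated, Rrm1 and Rrm2 (ribonucleotide reductase) and Tyms (thymidylate synthase) supply deoxynucleotides, and Pcna, bound by Pclaf, clamps the polymerases to DNA. In G2 and mitosis, Cdk1 with the cyclins Ccna2, Ccnb1 and Ccnb2 drives entry, the kinases Plk1, Aurka and Aurkb with Birc5, Tpx2 and Nusap1 build and correct the spindle, Bub1 watches kinetochores, which are built on Cenpa and carry Cenpf at their outer side, and Cdc20 and Ube2c send cyclins for destruction. Top2a untangles chromosomes and Mki67 coats them. Stmn1, Tubb5 and Tuba1b belong to the microtubule system, and Hmgb2 and H2afz to chromatin, and resting cells use several of these too. In marrow, erythroid, granulocyte and B cell precursors are known to divide in bursts and to stop dividing as they mature.

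Promoter windows of 28 of the 34 genes were found in the RefSeq set on GRCm38.p6, each running from 250 bases before the annotated start to 50 bases after it. Ccna2, Mcm4, Stmn1, Gins2, Tpx2 and Aurkb had no window in that set. Windows were searched on both strands for 3 motifs: the cell cycle homology region (CHR, TTTGAA or TTCGAA), known as a landing place of the MuvB complexes at mitotic genes, the CCAAT box, bound by NF-Y, and the E2F site (TTTCCCGC, TTTGGCGC, TTTCGCGC or TTTGCCGC). A CHR was present in 11 of 14 mitotic windows (78.6%), in 2 of 10 S-phase windows (20%) and in 21.7% of all 27025 genes with a window. An E2F site was present in 1 of 14 mitotic windows (7.14%), in 5 of 10 S-phase windows (50%) and in 2.61% of all genes. CCAAT boxes were present in 12 of 14 mitotic and 9 of 10 S-phase windows, against 41.1% of all genes. In these windows the CHR was thus more frequent in mitotic genes and the E2F site in S-phase genes, whereas most of both held the CCAAT box. The windows of 3 mitotic and 2 S-phase genes are shown to let these motifs be compared. They are RefSeq sequence, with every match on either strand in capitals (a CCAAT box on the other strand reads ATTGG), and overlapping E2F matches form 1 run.
Ccnb2, mitotic cyclin, chr9:70421505-70421804, minus strand: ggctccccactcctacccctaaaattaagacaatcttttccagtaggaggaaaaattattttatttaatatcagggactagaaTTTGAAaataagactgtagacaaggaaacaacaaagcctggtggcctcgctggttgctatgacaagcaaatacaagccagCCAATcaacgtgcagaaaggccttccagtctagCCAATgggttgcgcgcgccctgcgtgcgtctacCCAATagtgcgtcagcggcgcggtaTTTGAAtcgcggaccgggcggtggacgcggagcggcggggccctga
Cdk1, mitotic kinase, chr10:69352863-69353162, minus strand: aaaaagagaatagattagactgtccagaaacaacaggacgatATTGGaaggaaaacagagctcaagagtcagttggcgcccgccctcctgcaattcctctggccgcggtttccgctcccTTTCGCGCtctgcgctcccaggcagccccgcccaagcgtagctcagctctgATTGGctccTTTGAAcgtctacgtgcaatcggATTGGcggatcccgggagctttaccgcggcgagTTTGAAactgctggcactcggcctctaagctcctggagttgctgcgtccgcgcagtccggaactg
Plk1, mitotic kinase, chr7:122159185-122159484, plus strand: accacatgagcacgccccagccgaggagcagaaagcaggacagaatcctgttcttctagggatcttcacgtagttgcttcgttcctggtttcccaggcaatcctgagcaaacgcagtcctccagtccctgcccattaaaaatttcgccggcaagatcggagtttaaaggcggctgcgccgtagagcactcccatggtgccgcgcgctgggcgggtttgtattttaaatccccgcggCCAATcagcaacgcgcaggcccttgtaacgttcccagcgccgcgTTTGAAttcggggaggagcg
Mcm5, helicase subunit, chr8:75109259-75109558, plus strand: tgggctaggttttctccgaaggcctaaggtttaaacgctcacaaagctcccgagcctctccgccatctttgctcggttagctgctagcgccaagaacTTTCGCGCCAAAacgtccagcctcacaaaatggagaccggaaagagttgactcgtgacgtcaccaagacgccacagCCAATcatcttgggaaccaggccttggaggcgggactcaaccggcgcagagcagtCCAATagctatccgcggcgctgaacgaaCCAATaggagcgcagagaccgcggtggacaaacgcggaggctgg
Mcm6, helicase subunit, chr1:128359656-128359955, minus strand: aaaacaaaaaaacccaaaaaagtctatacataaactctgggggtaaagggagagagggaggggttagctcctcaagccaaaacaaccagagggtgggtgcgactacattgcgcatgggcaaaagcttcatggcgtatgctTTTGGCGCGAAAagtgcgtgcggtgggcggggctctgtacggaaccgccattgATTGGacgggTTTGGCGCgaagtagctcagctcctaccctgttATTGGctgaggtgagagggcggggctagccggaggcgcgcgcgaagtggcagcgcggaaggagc

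The roles also differed in where the CHR lay. In 10 of 14 mitotic windows (71.4%) a CHR began within 35 bases of the start, against 0 of 10 S-phase windows and 4.68% of all genes. In Ccnb2 one began at base 5, counted from the start as base 1, and 3 CCAAT boxes began 21, 54 and 87 bases before the start. Pairs of CCAAT boxes on the same strand whose first bases lay 31 to 34 bases apart occurred in 5 of 14 mitotic windows (Ccnb1, Ccnb2, Cdk1, Aurka and Ube2c), in 0 of 10 S-phase windows and in 1.04% of all genes. The bounds of 35 bases and of 31 to 34 bases were chosen after these positions were seen, and a match of letters is not a bound site. Cenpf and Mki67, the genes with the largest difference between the libraries, differed here: Cenpf had a CHR at base 3, while the CHRs of Mki67 began 98 and 116 bases before its start.

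The Mg-TAGelMA library held 7226 cells after filtering, with a median of 6744 unique molecular identifiers (UMIs, counted RNA molecules) per cell. The Mg library held 8122 cells, with a median of 3803.5. The Mg-TAGelMA library totalled 74982979 UMIs, against 55173502 for the Mg library, and 21 barcodes occurred in both, 19 of them among the kept cells. Cells were sorted by marker genes, none of them a cell cycle gene, into 20 gates, and a gate name stands for its markers, with no protein or sort behind it. Marker cuts were set after marker levels had been seen. Of the gates, 8 had at least 100 cells in each library and were compared between libraries. The make-up differed: mature neutrophils were 24.2% of the Mg-TAGelMA and 4.17% of the Mg library, and early erythroid cells 1.52% and 6.11%. The Mg-TAGelMA counts were made with a later software version, and 2 transcripts that overlap ribosomal RNA, Gm42418 and AY036118, took 0.12% of its UMIs and 7.07% of those of the Mg library.

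Within each library, among gates with at least 100 cells in it, most cell cycle genes stood highest in the early erythroid or the other B lineage gate and lowest in mature neutrophils. In early erythroid cells, gated by Klf1, Gata1, Epor and 3 further genes, the S-phase genes summed to 2853 CPM (UMIs scaled to the same total in every sum) in the Mg-TAGelMA library and 4365 CPM in the Mg library. Other B lineage cells, with B lineage markers but those of no stage, had 1836 CPM in the Mg-TAGelMA library and 3506 CPM in the Mg library, and those with the surrogate light chain genes Igll1, Vpreb1 and Vpreb2 or with Dntt (pro-B and large pre-B) had 2424 (78 cells) and 3688 CPM. In mature neutrophils the same sum was 174 CPM in the Mg-TAGelMA library and 355 CPM in the Mg library. The early erythroid gate was therefore at the top of the S-phase sum and mature neutrophils at the bottom in both libraries, among the gates with that many cells.

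The gate at the top was largely shared by the individual genes. Among the 9 gates with at least 100 cells in the Mg-TAGelMA library, early erythroid cells were highest for 11 of 12 S-phase and 11 of 17 mitotic genes, and other B lineage cells for the remaining 1 and 6. In the Mg library, with 10 such gates, the early erythroid gate was highest for 10 of 12 S-phase and 8 of 17 mitotic genes, and the other B lineage gate for 8 mitotic genes. Pclaf was the S-phase gene that left this order in both libraries: it had 609 CPM in other B lineage cells and 251 CPM in early erythroid cells of the Mg-TAGelMA library, and 1160 and 409 CPM in those of the Mg library. Ube2c, the ubiquitin-conjugating enzyme that works with the anaphase-promoting complex, was highest in late erythroblasts of the Mg library, at 770 CPM. Some mitotic top ranks were not separated by counting error. The interval of the highest gate over the second held 1 for Aurkb, Plk1 and Bub1 in the Mg-TAGelMA library. In the Mg library it did so for Cdk1 and Bub1. Lowest levels fell in mature neutrophils for 9 of 12 S-phase and 10 of 17 mitotic genes in the Mg-TAGelMA library, and for 10 of 12 and 9 of 17 in the Mg library. The other lowest levels fell in T cells, immature and mature B cells or, for 1 S-phase gene of the Mg-TAGelMA library, small pre-B cells. The S-phase sum of small pre-B cells in that library, 335 CPM, was below the 493 CPM of its T cells.

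**Figure D1:**
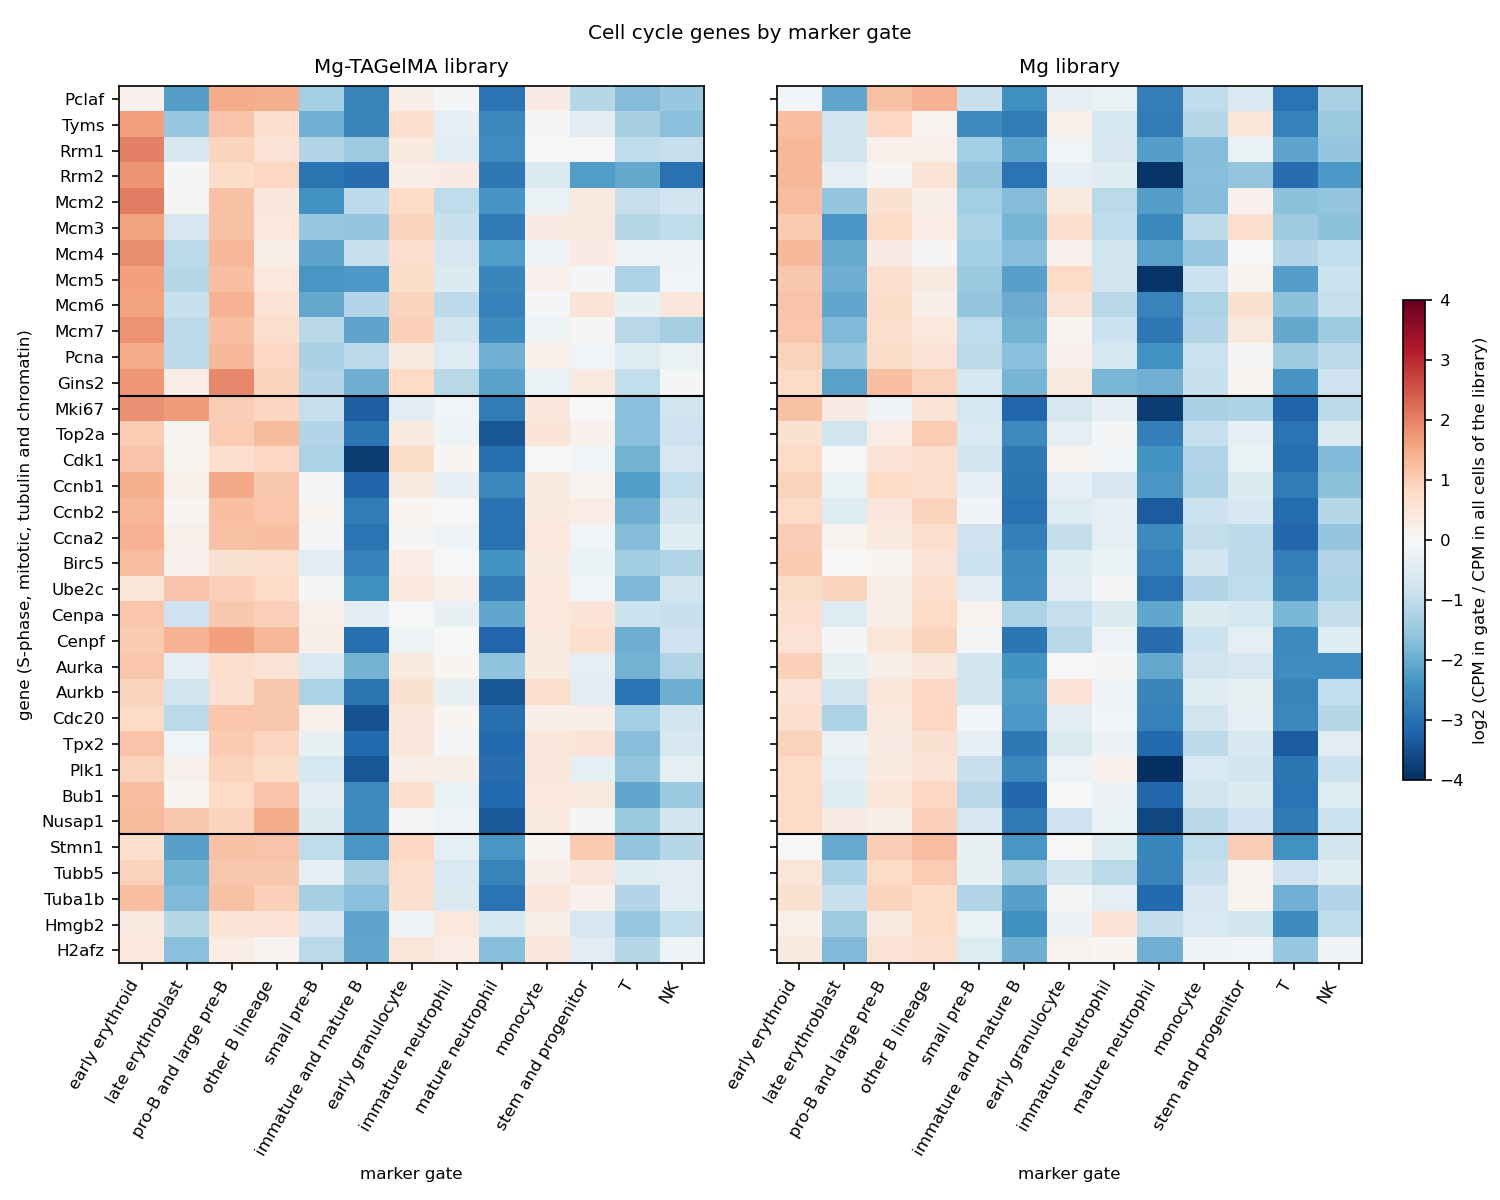
Level of each cell cycle gene (rows, in blocks of S-phase, mitotic, and tubulin and chromatin genes) in each marker gate (columns), as log2 of CPM in the gate over CPM in all cells of the same library, with a count of 0 set to 3. Early erythroid, pro-B and other B lineage columns are mostly red and mature neutrophil, mature B and T columns mostly blue in both panels; gates such as pro-B (78 Mg-TAGelMA cells) and early granulocyte (69 Mg cells) rest on few cells.

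The balance between mitotic and S-phase transcripts does not depend on the total of a library, and it ordered the gates differently from their levels. Of the gates with at least 100 cells in either library, late erythroblasts, rich in haemoglobin and Alas2 transcripts, had the most mitotic UMIs per S-phase UMI, at 4.6 (3.54 to 6.05) on 48 Mg-TAGelMA cells and 4.84 (4.56 to 5.13) on 547 Mg cells. Small pre-B cells, B lineage cells with the recombinase genes Rag1 or Rag2, followed with 3.39 (3.02 to 3.83) and 2.86 (2.74 to 2.98). Both gates thus held several mitotic UMIs for each S-phase UMI. However, the S-phase share of small pre-B cells, given below, lay beside that of T cells. After thinning, as given below, at least 2 S-phase UMIs were found in 10.8% (3.025 to 25.4) of Mg-TAGelMA late erythroblasts. In Mg late erythroblasts the share was 16.3% (13.1 to 19.9), and both intervals overlap those of T cells. The S-phase sum was 482 CPM (70 UMIs), against 493 CPM in T cells, in Mg-TAGelMA and 816 against 558 CPM in Mg. The S-phase UMIs of both gates were thus not separated from T cells by thinned share. Pro-B and large pre-B cells had 1.22 (1.16 to 1.29) mitotic UMIs per S-phase UMI in the Mg-TAGelMA library, against 1.25 (1.22 to 1.28) in the Mg library. Early granulocytes, gated by Elane, Mpo and related granule genes, had 1.15 (1.12 to 1.19) and 1.11 (1.06 to 1.17), and immature neutrophils with the later granule genes Ltf, Camp and Ngp had 1.84 (1.81 to 1.88) and 2.35 (2.31 to 2.40). Late erythroblasts over early erythroid cells, small pre-B over pro-B and large pre-B cells, and immature neutrophils over early granulocytes thus had the higher balance in both libraries. Mature neutrophils had 1.21 (1.14 to 1.30) and 1.44 (1.21 to 1.72), and immature and mature B cells 0.958 (0.885 to 1.04) and 1.22 (1.16 to 1.28). These lower values come from gates at or close to the background level given below and are not read as a later stage. Early erythroid cells differed between the libraries, with 1.18 (1.15 to 1.21) in the Mg-TAGelMA and 1.61 (1.59 to 1.63) in the Mg library.

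**Figure D2:**
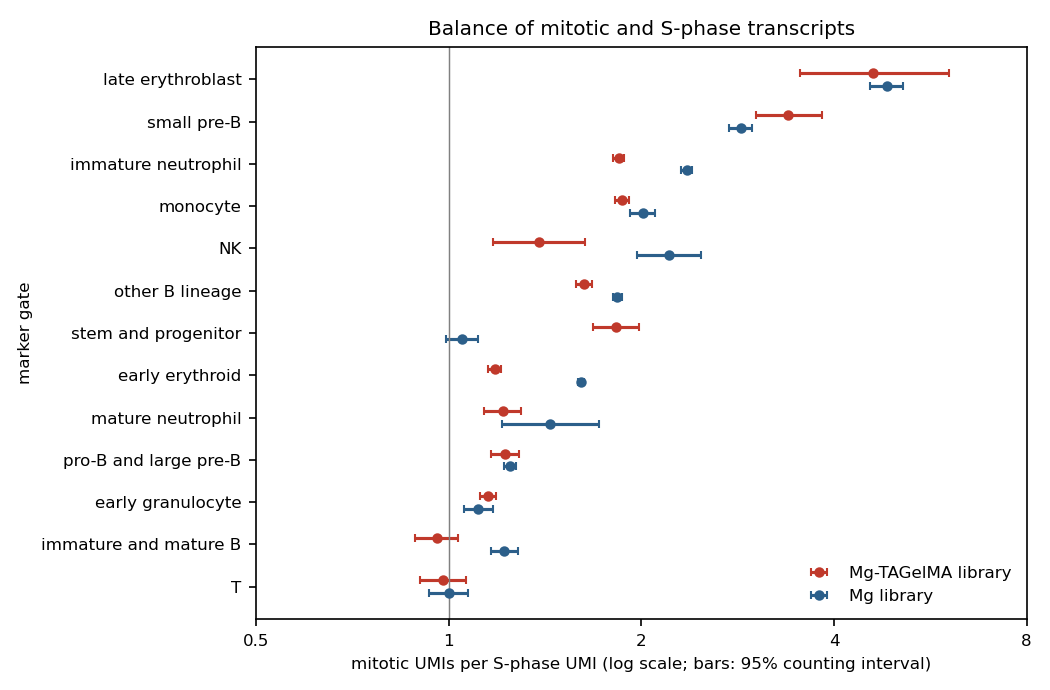
Mitotic UMIs per S-phase UMI in each marker gate (log axis) for the Mg-TAGelMA library (red) and the Mg library (blue), with 95% counting intervals. Late erythroblasts and small pre-B cells lie at 2.86 or above in both libraries, and pro-B, early granulocyte and T cells lie between 0.98 and 1.25.

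The step between the 2 B cell gates was measured gene by gene. In the Mg-TAGelMA library, levels in pro-B and large pre-B cells over those in small pre-B cells ranged from 4.23 to 12.7 over the 12 S-phase genes (median 8.43) and from 1.83 to 4.50 over the 17 mitotic genes (median 2.54). In the Mg library they ranged from 2.95 to 10.4 (median 3.83) and from 1.10 to 3.02 (median 1.87). The S-phase genes thus stepped down more than most mitotic genes in both libraries, with ranges that overlap. The S-phase levels of small pre-B cells are, however, not read as expression, as given below. Some of those in the Mg-TAGelMA library rest on few UMIs, such as 8 for Mcm2. The ribonucleotide reductase gene Rrm2 had 154 CPM in pro-B and large pre-B cells and 12.1 CPM in small pre-B cells of the Mg-TAGelMA library, where mature neutrophils had 12.7 CPM, and 227 and 73.0 CPM in those of the Mg library. Cenpa, the centromeric histone, stepped least of the mitotic genes, with 285 and 155 CPM in the Mg-TAGelMA and 307 and 279 CPM in the Mg library, and Top2a stepped most in the Mg-TAGelMA library, with 444 and 98.6 CPM. The mitotic sum in pro-B and large pre-B cells over that in small pre-B cells was 2.61 (2.44 to 2.79) in the Mg-TAGelMA library and 1.69 (1.64 to 1.73) in the Mg library. With 1 more distinct marker required per gate the Mg value turned to 0.927 (0.899 to 0.956), so the direction of that step in the Mg library rests on how the gates are drawn.

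The share of cells that carried cell cycle transcripts was compared after every cell was thinned to 1000 UMIs, which left out 177 cells of the Mg-TAGelMA and 604 of the Mg library. At least 2 mitotic UMIs were found in 14.6% (13.8 to 15.4) of Mg-TAGelMA and 30.7% (29.7 to 31.8) of Mg cells. Before thinning the shares were 52.7% and 59.8%. Among early erythroid cells the thinned share was 69.7% (60.2 to 78.2) in the Mg-TAGelMA and 92.7% (90.0 to 94.8) in the Mg library, and 98.2% and 99.4% before thinning. Among immature neutrophils it was 19.0% (17.1 to 21.0) and 34.5% (31.8 to 37.3), and 64.5% and 63.5% before thinning. Mature neutrophils do not divide, and their share was taken as a background level. Whether free RNA or other cells in the gate gave it was not tested. In the Mg library 97.9% of the gate lay in a cluster led by immature neutrophils, with 50.6% of its gated cells. The mature neutrophil share was 2.07% (1.46 to 2.86) in the Mg-TAGelMA and 12.4% (8.66 to 16.9) in the Mg library, where 72 cells were too shallow. Before thinning, at median depths of 4983 and 1515 UMIs, it was 27.4% and 23.6%. Immature and mature B cells, at 2.96% (1.96 to 4.28) and 8.55% (7.22 to 10.04), and T cells, at 3.20% (1.48 to 5.99) and 8.69% (6.31 to 11.6), lay close to that level, and were 37.2% and 42.6%, and 53.9% and 54.5%, before thinning. Levels and ratios of the mature neutrophil, immature and mature B and T gates are therefore not read as expression by those cells. Small pre-B cells, at 11% (7.02 to 16.2) and 19.4% (16.7 to 22.3), and 45.0% and 53.2% before thinning, lay above these 3 gates for mitotic UMIs, with intervals that overlap in the Mg library. For at least 2 S-phase UMIs they were at 4.5% (2.08 to 8.37) in the Mg-TAGelMA and 11.7% (9.59 to 14.1) in the Mg library, and 35.6% and 45.8% before thinning, beside T cells at 4.63% (2.49 to 7.78) and 10.6% (7.97 to 13.7), and 66.3% and 71.0% before thinning. Mature neutrophils were lower for S-phase UMIs, at 1.555% (1.027 to 2.255) and 5.618% (3.178 to 9.097), with an Mg interval below that of small pre-B cells. By sum, Mg small pre-B cells had 955 CPM of S-phase genes, against 558 CPM in Mg T cells. Because the thinned shares lay beside those of T cells, the S-phase levels, ratio and calls of small pre-B cells are not read as expression either.

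Cells with both phases marked were fewer but above the background level of mature neutrophils. At least 2 S-phase and 2 mitotic UMIs were found in 48.6% (38.9 to 58.4) of Mg-TAGelMA and 73.2% (69.0 to 77.0) of Mg early erythroid cells after thinning, and in 97.3% and 95.4% before. The same was found in 15.2% (12.2 to 18.6) of Mg-TAGelMA and 32.3% (29.3 to 35.4) of Mg other B lineage cells, and in 35.6% and 51.1% before thinning. In mature neutrophils it was found in 0.115% (0.014 to 0.416) of Mg-TAGelMA and 1.12% (0.232 to 3.25) of Mg cells, and in 5.95% and 4.13% before thinning.

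**Figure D3:**
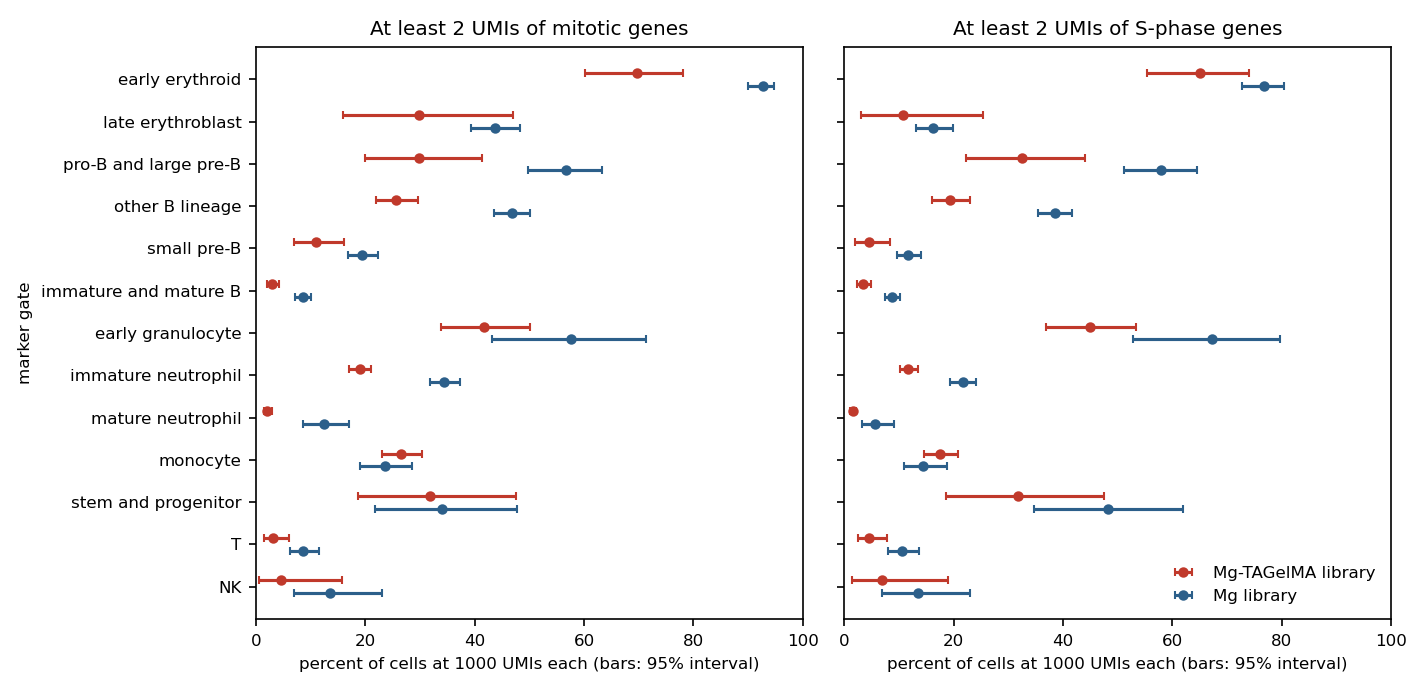
Percent of cells with at least 2 mitotic UMIs (left) or S-phase UMIs (right) after thinning each cell to 1000 UMIs, by marker gate, for the Mg-TAGelMA library (red) and the Mg library (blue), with exact 95% intervals. Of the gates drawn, early erythroid cells are highest in both panels, and small pre-B cells lie beside T and mature B cells in the S-phase panel. The intervals of the 2 libraries overlap in both panels for monocytes and for stem and progenitor, early granulocyte, late erythroblast and NK cells. In the S-phase panel they also overlap for early erythroid cells.

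Over all cells, the S-phase and mitotic genes were lower in the Mg-TAGelMA library. The mitotic sum was 1479 CPM in the Mg-TAGelMA library and 3871 CPM in the Mg library, a ratio of 0.382 (0.379 to 0.385). The S-phase sum was 1009 CPM in the Mg-TAGelMA library and 2230 CPM in the Mg library, a ratio of 0.453 (0.449 to 0.457). The tubulin and chromatin sum was 4741 and 6929 CPM, a ratio of 0.684. A gene was called when the interval of its ratio lay wholly beyond 2-fold and its level reached 50 CPM in the higher library. Of 32 cell cycle genes that reached this level, 19 were called lower in the Mg-TAGelMA library and 0 higher, where 7.63% of all 3973 genes tested were called lower and 18.8% higher. Gins2 and Bub1 stayed under 50 CPM, at 16.8 and 19.7 CPM in the Mg-TAGelMA and 29.98 and 42.1 CPM in the Mg library. The median log2 ratio was -1.09 over the 32 genes and -0.01 over all genes tested. Since the gates differ in these genes and in their shares of the 2 libraries, the sums over all cells combine the make-up and the level within cells.

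The genes called were 13 mitotic genes and 6 S-phase genes, and 0 of the 5 tubulin and chromatin genes. Mki67 was lowest relative to the Mg library, with 182 CPM in the Mg-TAGelMA library and 814 CPM in the Mg library, 4.47-fold lower (log2 ratio -2.16). Cenpf, which coats the outer kinetochore, had 62.4 CPM in the Mg-TAGelMA and 236 CPM in the Mg library. Plk1, the kinase that matures the spindle poles, had 24.2 and 76.8 CPM, 3.18-fold lower. These are followed by Ccna2 (2.83-fold lower), Top2a (2.74-fold), Ccnb1 (2.68-fold) and Cdc20 (2.36-fold). Aurkb, Aurka, Cdk1, Nusap1, Ccnb2 and Ube2c were between 2.08-fold and 2.27-fold lower. Of the mitotic genes not called, Tpx2 had 66.2 CPM in the Mg-TAGelMA and 136 CPM in the Mg library, Birc5 152 and 293 CPM and Cenpa 135 and 255 CPM, ratios between 0.486 and 0.527.

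Among the S-phase genes, Mcm2 had 40.2 CPM in the Mg-TAGelMA library and 132 CPM in the Mg library, 3.28-fold lower. Its partners in the same helicase ring, used in equal numbers, differed less: Mcm4 was 2.39-fold and Mcm7 2.11-fold lower, and Mcm3, Mcm5 and Mcm6 had ratios of 0.499, 0.506 and 0.586. Pcna had 143 CPM in the Mg-TAGelMA and 391 CPM in the Mg library, 2.74-fold lower, while Pclaf, which binds it, had 223 and 441 CPM, a ratio of 0.506. Rrm1 was 2.63-fold and Rrm2 2.37-fold lower, and Tyms had a ratio of 0.593. Of the tubulin and chromatin genes, H2afz differed least: it had 1680 CPM in the Mg-TAGelMA and 1907 CPM in the Mg library, a ratio of 0.881 (0.874 to 0.888), and the other 4 had ratios from 0.584 to 0.630. Tuba1b, Tubb5, Hmgb2 and H2afz have close relatives in the genome whose reads the counting could have split, and Pclaf, Nusap1, Ube2c, Ccna2, Cdc20, Mcm7, Gins2 and Tuba1b overlap a gene on the opposite strand.

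**Figure D4:**
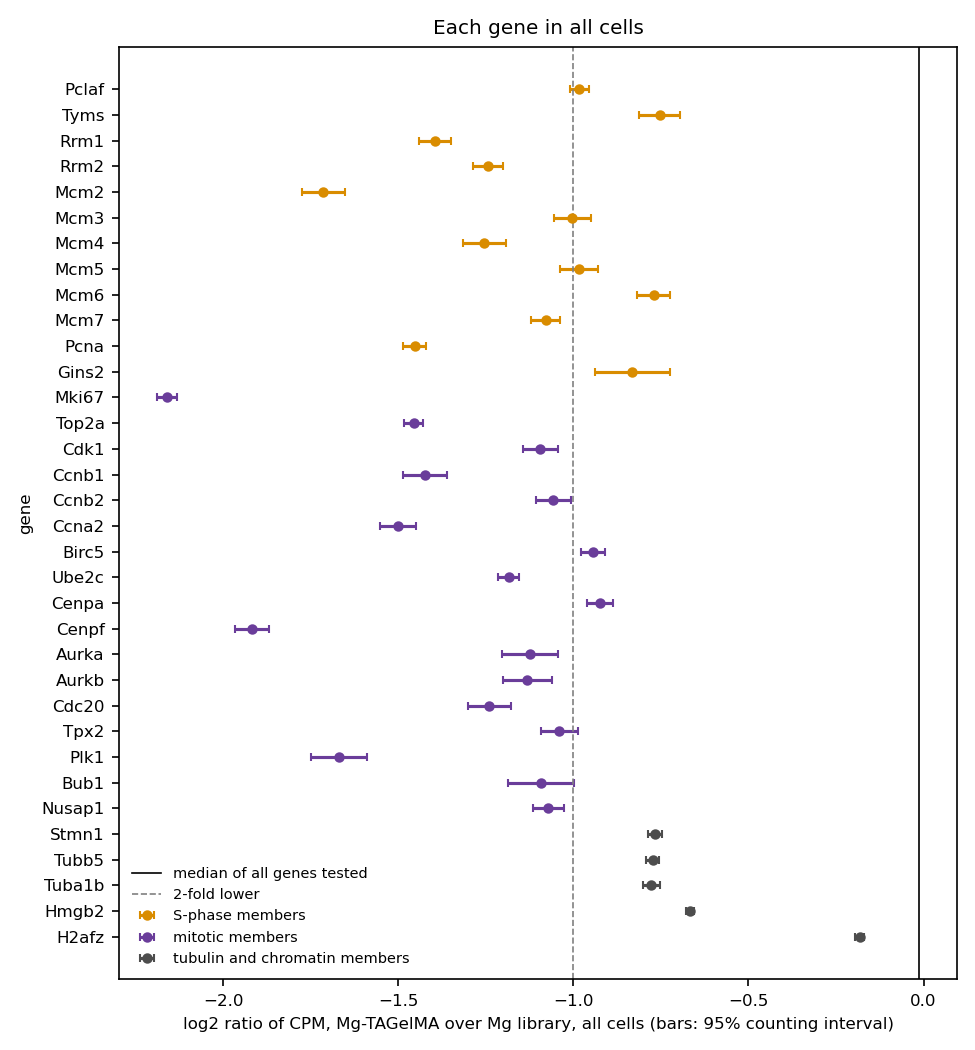
Log2 ratio of CPM, Mg-TAGelMA over Mg library, in all cells for each gene, with 95% counting intervals that cover counting error only. The solid line is the median of all genes tested (-0.01) and the dashed line marks 2-fold lower; Mki67 lies farthest left and H2afz nearest to 0.

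Other genes of the same pathway were counted in 4 lists over all cells, chosen with earlier results of these data known. The share called lower was near that of the members in the spindle list and smaller in the other 3. Of the spindle, kinetochore and cytokinesis genes, 20 of 33 tested were called lower and 0 higher, with a median log2 ratio of -1.18. Aspm, a spindle pole protein, was 4.88-fold lower, with 19.0 CPM in the Mg-TAGelMA and 92.5 CPM in the Mg library. Cdc25b, the phosphatase that activates Cdk1, was 3.47-fold and the kinesin Kif22 3.44-fold lower. Of the origin licensing and replication genes, 7 of 17 were called lower and 0 higher, led by Uhrf1 (2.93-fold), Cdc6 (2.84-fold) and Fen1 (2.72-fold). Of the G1 cyclin, kinase and E2F genes, 4 of 9 were lower and 0 higher, among them Cdc25a (2.61-fold), E2f2 (2.60-fold) and Ccnd2 (2.35-fold). Of the inhibitors of cyclin-dependent kinases and quiescence genes, 1 of 7 was called, Cdkn2c, which was 2.21-fold lower, and the median log2 ratio was -0.19. These counts stand against the 7.63% of all genes called lower.

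Within gates, cells of the 2 libraries lay mostly in different clusters: of 36 clusters made without cell cycle genes, 27 held at least 95% of their cells from 1 library, and those 27 held between 94.5% and 100% of the cells of each compared gate in each library. The leading cluster of immature neutrophils was 2 in the Mg-TAGelMA and 8 in the Mg library, of early erythroid cells 23 and 10, of monocytes 14 and 9, of T cells 19 and 13, of small pre-B cells 6 and 0, of other B lineage cells 6 and 0, of immature and mature B cells 5 and 1 and of mature neutrophils 4 and 7. A gate may therefore hold different states in each library, and their part in the ratios was not tested. The mitotic sum was lower in the Mg-TAGelMA library in 7 of 8 gates and the S-phase sum in 7 of 8, and the monocyte gate was the exception for both. The lower gates include mature neutrophils, immature and mature B cells and T cells, whose ratios are not read as expression. For S-phase genes the same holds for small pre-B cells. In immature neutrophils the mitotic sum was 1420 CPM in the Mg-TAGelMA and 3304 CPM in the Mg library, a ratio of 0.430 (0.423 to 0.437). In early erythroid cells it was 3367 CPM in the Mg-TAGelMA and 7030 CPM in the Mg library, a ratio of 0.479 (0.471 to 0.488). In small pre-B cells it was 1136 and 2729 CPM, a ratio of 0.416 (0.392 to 0.442), and in other B lineage cells 2991 and 6435 CPM, a ratio of 0.465 (0.456 to 0.474). The mitotic ratios were close to each other in these 4 gates, and the S-phase ratios were spread more widely. The latter were 0.548 (0.536 to 0.561) in immature neutrophils, 0.654 (0.641 to 0.667) in early erythroid cells and 0.524 (0.510 to 0.537) in other B lineage cells. In small pre-B cells, whose S-phase share lay beside that of T cells, the S-phase ratio was 0.351 (0.313 to 0.391). In the gates with mitotic UMIs at or close to the background level, the mitotic ratio was 0.414 (0.367 to 0.467) in mature neutrophils, 0.437 (0.409 to 0.466) in immature and mature B cells and 0.867 (0.802 to 0.936) in T cells.

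Mki67 was called lower in 5 of the 8 gates: immature neutrophil, early erythroid, small pre-B, other B lineage, and immature and mature B, the last close to the background level. In early erythroid cells it had 643 CPM in the Mg-TAGelMA and 1848 CPM in the Mg library, and in small pre-B cells 96.7 and 503 CPM. Of the 32 cell cycle genes tested in immature neutrophils, 9 were called lower (Mki67, Cenpf, Mcm2, Plk1, Top2a, Aurkb, Ccna2, Pcna and Rrm1), where 4.66% of all genes were. In early erythroid cells 4 of 34 were called lower (Mki67, Plk1, Ube2c and Cenpf), where 1.99% of all genes were, and 0 of the 12 S-phase genes were among them. In small pre-B cells 9 of 26 were called lower (Mki67, Top2a, Cdk1, Cenpf, Mcm2, Rrm2, Pcna, Pclaf and Stmn1), where 1.98% of all genes were. Mcm2 there rests on 8 Mg-TAGelMA and 162 Mg UMIs, and 4 of the 9 are S-phase genes. Stmn1, a microtubule regulator, had 232 CPM in the Mg-TAGelMA and 641 CPM in the Mg library. In other B lineage cells 6 of 34 were called lower (Mki67, Mcm2, Plk1, Cenpf, Pcna and Top2a), where 1.99% of all genes were. In mature neutrophils 1 of 11 was called lower, where 9.16% of all genes were, in immature and mature B cells 2 of 12, where 4.81% were, and in T cells 0 of 14, where 1.68% were. In none of the 8 gates was a cell cycle gene called higher, where between 9.33% (immature neutrophils) and 21.6% (immature and mature B cells) of all genes were.

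**Figure D5:**
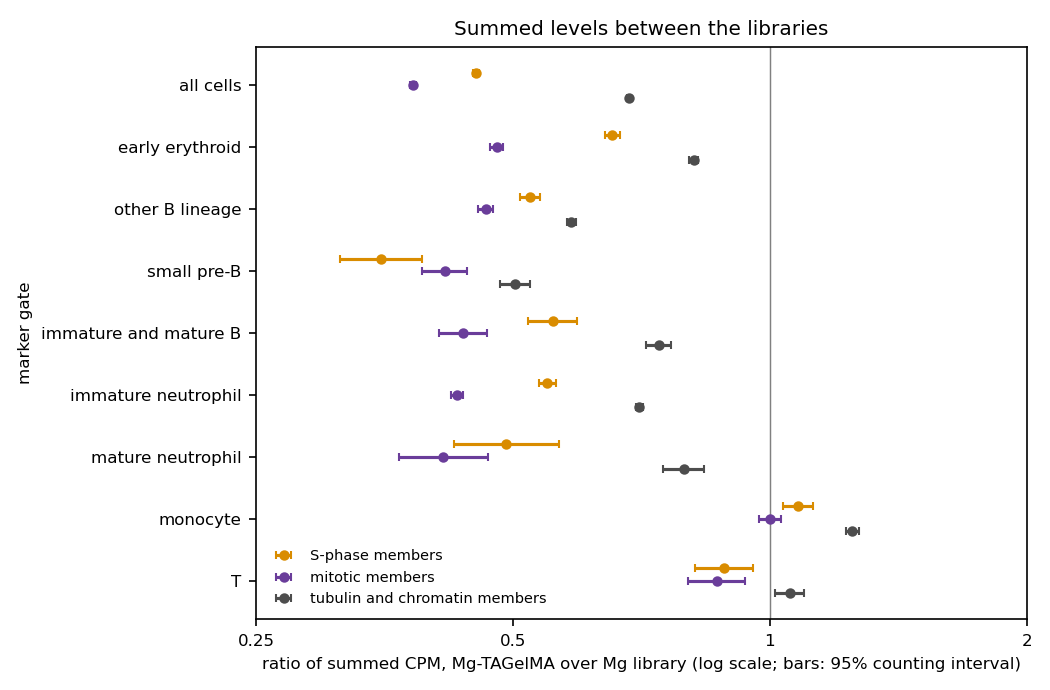
Ratio of summed CPM, Mg-TAGelMA over Mg library, for the S-phase, mitotic, and tubulin and chromatin genes in all cells and in each compared gate (log axis), with 95% counting intervals. Points left of 1 are lower in the Mg-TAGelMA library; the monocyte points lie at 1.08, 1.001 and 1.25.

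The early erythroid gate differed between the libraries in late erythroblast markers, and whether by the stages it held or by free RNA was not tested. All 6 late erythroblast markers, the globins Hbb-bt and Hba-a1 among them, were detected in it in both, and they summed to 15912 CPM in the Mg-TAGelMA library and 45455 CPM in the Mg library. When the gate was limited to cells with under 200 UMIs of these markers per 10000, a limit set with the data in view that left 69 Mg-TAGelMA and 135 Mg cells, the mitotic ratio was 0.648 (0.632 to 0.664) and the S-phase ratio 0.734 (0.715 to 0.754). The immature neutrophil gate differed as well: all 7 mature neutrophil markers were detected in it in both libraries, and they summed to 8419 CPM in the Mg-TAGelMA and 4473 CPM in the Mg library, and the part of this difference in the ratios was not tested.

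Monocytes, gated by Ly6c2, Ccr2, Csf1r and 3 further genes, showed cell cycle transcripts at similar summed levels in the libraries. The mitotic sum was 1977 CPM in the Mg-TAGelMA library and 1975 CPM in the Mg library, a ratio of 1.001 (0.972 to 1.03), which became 0.912 without Gm42418 and AY036118 in the total and 1.23 over the total of genes with short introns. The S-phase sum was 1060 and 983 CPM, a ratio of 1.08 (1.04 to 1.12), or 0.984 (0.944 to 1.03) without those 2 transcripts, and the tubulin and chromatin sum 5955 and 4767 CPM, a ratio of 1.25 (1.23 to 1.27). Of 29 cell cycle genes tested, 0 were called lower and 0 higher, where 1.37% of all genes were called lower and 14.3% higher. The genes did not move as one. Mki67 had 248 CPM in Mg-TAGelMA and 334 CPM in Mg monocytes, a ratio of 0.743 (0.690 to 0.801), and Cenpf, Plk1 and Pcna had ratios of 0.631 (0.558 to 0.715), 0.656 (0.538 to 0.803) and 0.772 (0.704 to 0.848). Tpx2, the spindle assembly factor, had 91.1 and 65.8 CPM, a ratio of 1.38 (1.18 to 1.63), and Mcm6 86.7 and 62.8 CPM, a ratio of 1.38 (1.18 to 1.63). The thinned share of monocytes with at least 2 mitotic UMIs was 26.6% (23.1 to 30.3) in the Mg-TAGelMA and 23.6% (19.1 to 28.51) in the Mg library, and 80.6% and 67.4% before thinning.

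With cells that passed both the early granulocyte and the monocyte markers counted as monocytes, an alternative added later, the mitotic ratio was 0.917 (0.893 to 0.941) and the S-phase ratio 1.24 (1.20 to 1.29). With classes from clusters made without any cell cycle gene the mitotic ratio was 0.874, and with cells thinned to 1000 UMIs it was also 0.874. All 5 early granulocyte markers were detected in the monocyte gate of both libraries, and they summed to 974 CPM in the Mg-TAGelMA and 470 CPM in the Mg library. The immature neutrophil markers, 6 of 6 detected in both, summed to 6678 and 1900 CPM there, and their part in the result was not tested.

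Annotated intron length was set beside the ratio. Genes with over 64 kb of intron had a median log2 ratio of 0.997 in all cells, those with 16 to 64 kb -0.04, and those with 8 to 16 kb, 2 to 8 kb and under 2 kb -0.33, -0.33 and -0.34. None of the 34 cell cycle genes has over 64 kb. The 7 tested with 16 to 64 kb had a median of -1.39, the 10 tested with 8 to 16 kb -1.08, the 10 tested with 2 to 8 kb -1.16 and the 5 tested with under 2 kb -0.77. Over the total UMIs of short genes (at most 8 kb of intron), a scale added later, the mitotic ratio in all cells was 0.433 (0.430 to 0.437) and the S-phase ratio 0.513 (0.509 to 0.518), and 11 cell cycle genes were called lower, where 4.63% of the 5788 genes tested on this scale were, and 0 higher, where 20.6% were. When the 16 cell cycle genes with at most 8 kb were alone summed on this scale, the mitotic ratio was 0.518 and 4 genes were called lower, where 7.81% of the 1536 short genes tested were, and 0 higher, where 9.18% were. On the CPM scale with the bound set to 1.5-fold, 31 cell cycle genes were called lower, where 19.9% of all genes were, and 0 higher, where 28.1% were. On both short gene scales, but not on the CPM scale, the mitotic ratio in T cells was above 1, at 1.13 and 1.23.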

How the data were processed

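The values deposited by the authors are unnormalized UMI counts for each gene in each barcode; gene and barcode lists carry no unit. Counts were made with Cell Ranger 5.0.0 (Mg) and 7.0.1 (Mg-TAGelMA), per the file headers, and the submitters' processing notes name STAR and mm10. Whether introns were counted is not given in the sources used here. Kept barcodes had at least 200 genes, at most 15% mitochondrial counts and no scrublet doublet call (297 Mg-TAGelMA, 3.95%; 197 Mg, 2.37%). UMIs were summed per library and gate and scaled to CPM; each ratio sets Mg-TAGelMA over Mg, with a 95% interval from the exact binomial split of its UMIs, shares have exact Clopper-Pearson intervals, and a count of 0 was set to 3. A gate needed a minimum number of distinct markers and of marker UMIs per 10000. Intron lengths are from GENCODE vM21. All 34 genes were to be named, and of each other list the 3 with the largest change among the genes called. The size rule was checked on simulated counts with counting error alone, so that check does not cover differences between mice, preparations or software. The genes and lists were chosen with earlier results of these data known. Tools were Python 3.11.15, scanpy 1.11.5, scipy 1.17.1, R 4.3.3, edgeR 4.0.16 (TMM) and DESeq2 1.42.0 (size factors only).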

Additional observations from a re-analysis of the deposited data

Results flagged for a closer look

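In the monocyte gate the S-phase sum was higher in the Mg-TAGelMA library, with a ratio of 1.079, while it was lower in the other 7 compared gates. Those 7 include mature neutrophils, immature and mature B cells, T cells and small pre-B cells, whose S-phase ratios are not read as expression. The tubulin and chromatin sum had ratios of 1.249 in monocytes and 1.055 in T cells and was lower in the other 6 gates; the S-phase value in monocytes and the T cell value fell to 0.984 and 0.979 without Gm42418 and AY036118 in the total. With 1 library per nail, these differences between gates were not tested.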

How the results depend on the processing

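Over all cells both sums stayed below 1 under every setting run. The S-phase ratio was 0.447 with at least 500 genes per cell, 0.446 with doublets kept, 0.432 with TMM, 0.435 with median-ratio scaling, 0.421 without Gm42418 and AY036118, 0.469 with genes of at most 8 kb of intron, 0.458 thinned and 0.513 with all members over the total of those short genes. In the same order the mitotic ratio was 0.378, 0.377, 0.365, 0.368, 0.356, 0.518, 0.335 and 0.433. The count of 19 called genes became 4 with short genes alone (7.81% of genes tested lower), 11 over their total (4.63%) and 31 beyond 1.5-fold (19.9%). The S-phase sum was lower in 4 of 6 classes from clusters, not in monocytes (1.18) or T cells (0.943, 0.870 to 1.02); mature neutrophil and small pre-B clusters, nearly all from 1 library, gave no value. The pro-B over small pre-B ratio in Mg became 1.61, 1.54, 2.35, 0.927 and 1.58 without the 2 transcripts, with short genes, thinned, with stricter gates and over the short gene total; in Mg-TAGelMA it became 1.85, 2.19 and 2.29 with short genes, thinned and over their total. TMM and median-ratio scaling were not run for it. Sums that crossed 1 were S-phase in monocytes (0.984 without the 2 transcripts), tubulin and chromatin in mature B cells (1.03 on both short gene scales) and T cells (0.986 with TMM, 0.981 with median-ratio scaling, 0.979 without the 2 transcripts), and in T cells S-phase (1.01 and 1.16) and mitotic (1.23 and 1.13) on the 2 short gene scales; the causes were not tested. Of the other values 452 stayed within their interval (counts within 1.5-fold). Nearly as many left that range, so many sizes depend on the processing. Those that left it moved in the same direction or from a value whose interval held 1. The short gene total was added after the data were seen; with stricter gates or clusters the Mg-TAGelMA pro-B gate was too small. No paired analysis was possible because each nail has 1 library. Intervals and floors cover counting error only, and levels near 3 counts carry no fold.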
